A study of Mus musculus with 14 samples.

Results

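The 8 genes examined here sense corticosteroids or make and convert them in the colon. They are Nr3c1, which encodes the glucocorticoid receptor (GR), Nr3c2, Nr5a2, Star, Cyp11a1, Cyp11b1, Hsd11b1 and Hsd11b2. Members were found by matching the accession of each array probe to the gene, and 14 of 41174 probes matched 7 of the 8 genes, out of 19096 genes named on the array. No probe was matched to Cyp11b1, which was therefore not analysed here. Of the 14 probes, 13 were well above background on at least 3 arrays and were tested among 29523 probes in all. The arrays profiled total RNA of whole colon from female C57BL/6 mice on chow, aged 4 to 6 months, and each array holds 1 mouse. In Flox controls the GR alleles are floxed but intact, and GR iKO mice carry the same alleles with a Cre driven by the Villin promoter, which is active in intestinal epithelium from development on, so that GR in other cells of the colon wall is left in place. Both genotypes drank regular water (n = 4 Flox, n = 4 GR iKO) or, to injure the epithelium of the colon, 2.5% DSS (dextran sulfate sodium) over 7 days (n = 3 Flox, n = 3 GR iKO). In whole tissue, fewer cells of a type and less RNA per cell cannot be told apart.

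Corticosterone, the main glucocorticoid of the mouse, acts in target cells through GR, and it also binds the mineralocorticoid receptor encoded by Nr3c2, which in the distal colon responds to aldosterone and drives sodium uptake. How much active steroid reaches the receptors depends on a pair of enzymes with opposite directions, Hsd11b1, which regenerates corticosterone from inert 11-dehydrocorticosterone, and Hsd11b2, which inactivates corticosterone and so shields the mineralocorticoid receptor. The gut can also make corticosterone itself, in a route that runs from cholesterol import into mitochondria by Star through side chain cleavage by Cyp11a1 to 11-beta-hydroxylation by Cyp11b1, under control of the nuclear receptor Nr5a2 (LRH-1).

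Levels are given as log2 processed intensity minus the 75th percentile of the same array, so 0 is the 75th percentile, and they are compared between arrays for 1 probe but never between probes. The 75th percentile was 707 to 1003 intensity units on water arrays, 262 to 675 on Flox DSS arrays and 493 to 713 on GR iKO DSS arrays. All 12 epithelial and all 7 colonocyte marker genes measured were well above background on every array of whole colon. Of 6 adrenal cortex markers, Cyp11b2 and Cyp21a1 were well above background on none of the 14 arrays, whereas the other 4 were on all. Arrays of mice on DSS varied more among themselves than those of mice on water, with a median variance ratio of 3.11, and this was weighted in the fit. Adjusted p values are those of limma over all tested probes, those under 0.05 count as calls, and SE stands for standard error. Values are listed in the order of the replicate numbers, which are 1, 2 and 4 for Flox DSS, 1, 3 and 4 for GR iKO DSS and 1 to 4 on water.

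Nr3c1 transcript was lower in GR iKO colon than in Flox colon, and its change on DSS was within the spread of the arrays. Its brightest probe, A_52_P138090, read 1.05, 1.17, 1.18 and 1.38 in Flox mice on water and 0.36, 0.57, 0.44 and 0.19 in GR iKO mice on water. On DSS the same probe read 1.27, 1.46 and 1.07 in Flox and 0.48, 0.45 and 0.37 in GR iKO. The lowest of the 7 Flox arrays stayed above the highest of the 7 GR iKO arrays, so the genotypes did not overlap under either treatment. On water the level in GR iKO was 57.3% of that in Flox (95% confidence interval 49.6% to 66.1%), a log2 difference of −0.80 (SE 0.10, adjusted p = 0.00923). It was the 1 member gene called between genotypes on water, where 0.0237% of all tested probes were called. An exact two-sided permutation test gave p = 0.0286, the smallest that 4 against 4 arrays allow, and the within-slide differences on the 4 slides ran from −1.19 to −0.59. On DSS the difference was −0.83 (SE 0.20), which left 56.1% of the Flox level (95% confidence interval 41.4% to 76.1%). That difference was not called (adjusted p = 0.0906, exact permutation p = 0.1, the smallest that 3 against 3 arrays allow). Since GR was deleted in the epithelium of GR iKO mice, Nr3c1 serves here as the check of the genotype, and all 14 arrays fell on the side of their label.

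The 4 probes of Nr3c1 all had lower means in GR iKO than in Flox under both treatments, by unequal amounts on DSS. On water the other probes read −0.88 (A_52_P63106, adjusted p = 0.00252), −1.07 (A_51_P355693, adjusted p = 0.147) and −0.84 (A_52_P254174, adjusted p = 1.00, with GR iKO water replicate 2 above every Flox water array at −2.64), so that 2 of the 4 were called. On DSS they read −0.81, −0.40 and −0.86, none of them called. The probe with the smallest difference on DSS, A_51_P355693, was also the only Nr3c1 probe with a called response to DSS, a change of −0.76 in Flox (SE 0.29, adjusted p = 0.0446), against +0.07 (95% confidence interval −0.27 to 0.42) for the brightest probe. It was dim, with a mean signal of 56.0 intensity units on Flox water, and on Flox DSS replicate 4, at 5.58 units, it was not well above background. Where the probes lie relative to the floxed part of the gene was not determined. The call on water was lost with 1 spread shared by all arrays (adjusted p = 0.0968), with only the 8 water arrays (0.293), with spike-in scaling (0.190), with slide as a block (0.152), with a replicate block (0.169), with the mean over the 4 probes (0.115) and without Flox water replicate 3 (0.059), whereas the difference stayed between −0.98 and −0.74 under all alternatives tried.

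**Figure D1:**
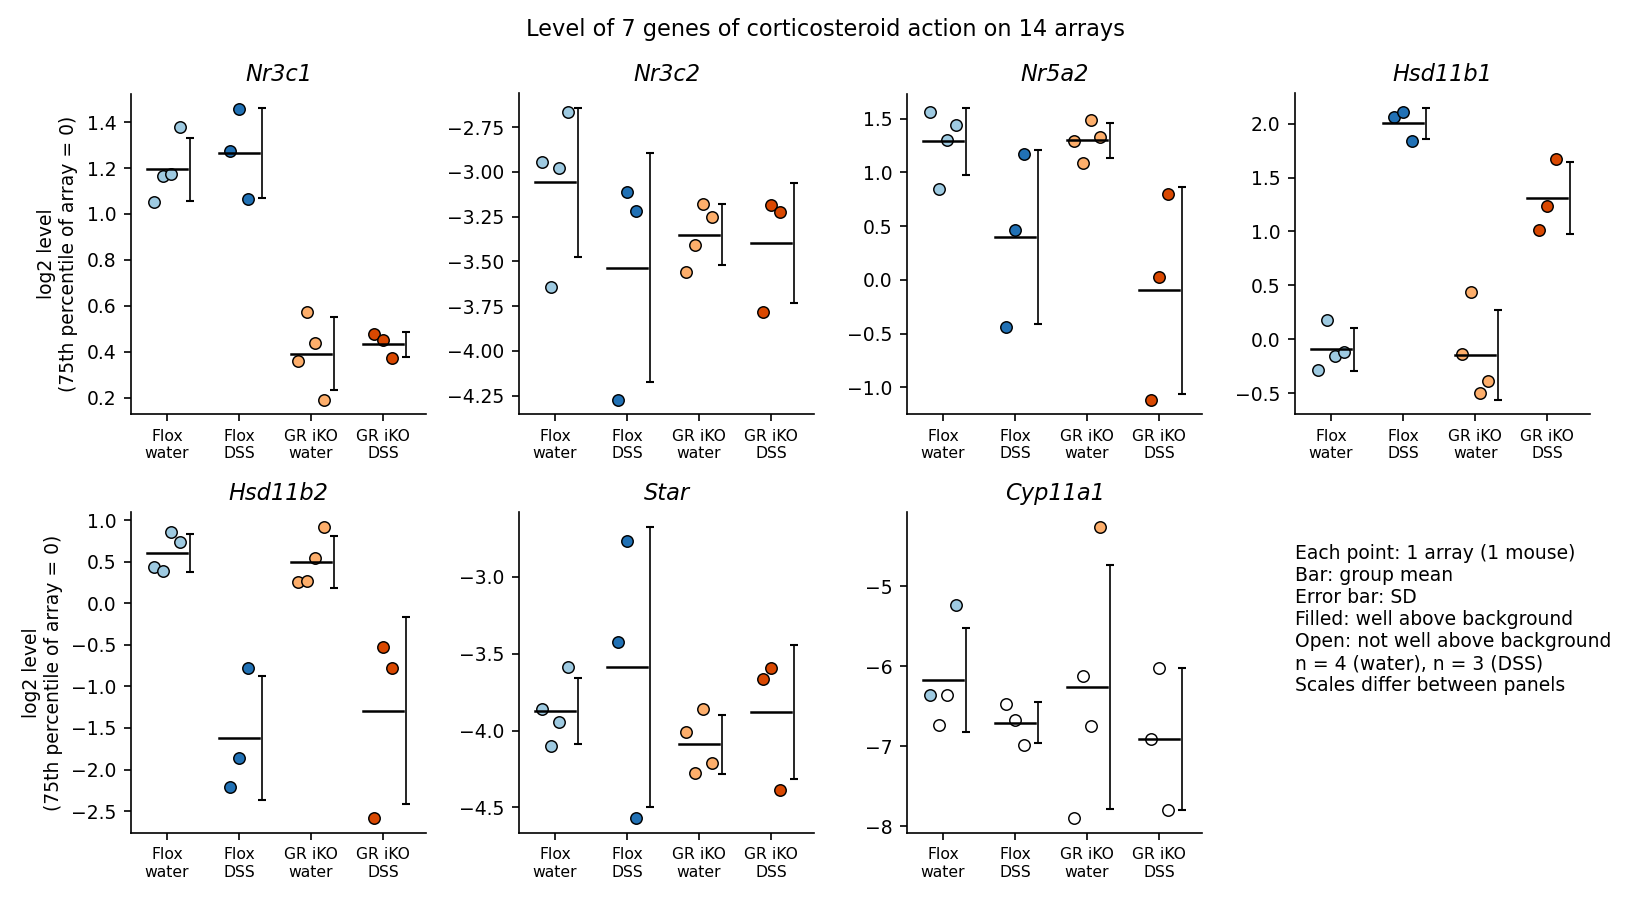
Level of each gene's brightest probe on each of the 14 arrays (vertical axis, log2 with the 75th percentile of the array at 0) by group, with the group mean as a bar and the SD as an error bar, and open points where the probe was not well above background. Nr3c1 separates by genotype, Hsd11b1 and Hsd11b2 separate by treatment in opposite directions, and Cyp11a1 was well above background on 3 arrays.

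Nr3c2, the mineralocorticoid receptor gene, showed no called change by its brightest probe. A_51_P377914 averaged −3.06 ± 0.42 in Flox water (SD, n = 4), −3.54 ± 0.64 in Flox DSS (n = 3), −3.35 ± 0.17 in GR iKO water (n = 4) and −3.40 ± 0.33 in GR iKO DSS (n = 3), and every group overlapped every other. The change on DSS was −0.48 in Flox (95% confidence interval −1.20 to 0.25, adjusted p = 0.259) and −0.05 in GR iKO (−0.77 to 0.67, adjusted p = 0.924). A second probe, A_52_P378137, changed by −0.72 and −0.36, neither of them called. The third and dimmest probe behaved otherwise. A_52_P264543 read −4.29, −4.99, −4.29 and −3.84 in Flox water and −5.03, −4.74, −4.53 and −4.34 in GR iKO water, and it was not well above background on any of the 6 DSS arrays. Its level was thus at least 1.97-fold lower on DSS in Flox and at least 1.98-fold lower in GR iKO, bounds set against the lowest signal that was well above background on each array. The fit called this probe lower on DSS in both genotypes. It passed the filter only through the water arrays, where it was high, and its DSS readings lay at the background, so these calls give no support of their own. With the mean over the 3 probes, this one included, Nr3c2 was called lower on DSS in Flox (−1.23, adjusted p = 0.0142) but not in GR iKO. That call thus rests in part on the same readings at the background. Why the probes differ was not tested.

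The balance of the 2 receptor transcripts within an array, which a scaling by 1 value per array does not shift, was lower in GR iKO mice on water. With the mean of Flox water arrays at 0, the log2 difference Nr3c1 minus Nr3c2 was −0.33, −0.27, −0.63 and −0.81 in GR iKO water, all 4 below the lowest Flox water value of −0.25. The mean difference between genotypes was −0.51 on water (exact permutation p = 0.0286, the smallest 4 against 4 arrays allow) and −0.97 on DSS (exact permutation p = 0.1, the smallest 3 against 3 allow). In Flox mice DSS moved the balance by 0.55 (exact permutation p = 0.229), within the spread of the arrays. With the mean over all probes of each gene the difference on water was −0.67 (exact permutation p = 0.0857). The p on water was also lost without any 1 of the GR iKO water arrays or without Flox water replicate 2 or 3 (exact permutation p from 0.0571 to 0.114, where 0.0286 could be reached), and without Flox water replicate 2 the difference was −0.33.

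Nr5a2, the receptor that drives steroid synthesis in the gut epithelium, was called lower on DSS in GR iKO but not in Flox, with a wide spread between mice. A_51_P514449 read 1.56, 0.85, 1.30 and 1.44 in Flox water, 1.29, 1.09, 1.49 and 1.33 in GR iKO water, −0.44, 0.46 and 1.17 in Flox DSS and −1.11, 0.03 and 0.80 in GR iKO DSS. The 3 GR iKO DSS arrays were all below every GR iKO water array, but Flox DSS replicate 4 lay inside the Flox water range. In GR iKO Nr5a2 fell to 37.9% of the water level (95% confidence interval 21.0% to 68.5%), a log2 change of −1.40 (SE 0.39, adjusted p = 0.0141). In Flox the change was −0.89 (SE 0.39, adjusted p = 0.0805), and it was not called. The test of the difference between the genotypes' responses gave −0.51 (95% confidence interval −1.72 to 0.70, adjusted p = 0.726), so the calls do not show that Nr5a2 responded differently in GR iKO mice. Single arrays decided the calls. Without GR iKO DSS replicate 1 the GR iKO change was −0.89 (adjusted p = 0.0996). Without Flox DSS replicate 4 the Flox change was −1.28 (adjusted p = 0.0319), and it was also called without Flox water replicate 2 (−1.04, adjusted p = 0.0427) and without GR iKO DSS replicate 1 (−0.89, adjusted p = 0.0425). On water the genotypes differed by 0.01 (95% confidence interval −0.50 to 0.53).

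Upstream sequences are shown for the 2 members called on DSS in GR iKO that have an entry in the RefSeq promoter table, to let their sequence be set beside the motif of the receptor that GR iKO mice lack in the epithelium. Each is the 250 bases before an annotated transcription start on build GRCm38.p6, and Nr5a2 has 2 such starts. Capitals mark the GR half-site letters AGAACA, or their reverse complement TGTTCT, searched on both strands.
Nr5a2, chr1:136960449-136960698, minus strand: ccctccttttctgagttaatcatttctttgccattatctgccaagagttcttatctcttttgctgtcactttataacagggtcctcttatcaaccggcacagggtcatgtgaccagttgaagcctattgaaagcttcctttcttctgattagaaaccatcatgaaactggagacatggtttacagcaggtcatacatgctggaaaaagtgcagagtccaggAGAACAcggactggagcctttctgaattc
Nr5a2, chr1:136953631-136953880, minus strand: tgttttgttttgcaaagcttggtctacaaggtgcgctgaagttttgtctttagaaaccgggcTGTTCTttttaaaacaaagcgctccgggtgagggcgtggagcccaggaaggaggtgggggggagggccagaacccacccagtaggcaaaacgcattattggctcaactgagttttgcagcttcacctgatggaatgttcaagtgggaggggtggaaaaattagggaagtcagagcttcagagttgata
Hsd11b1, chr1:193242361-193242610, minus strand: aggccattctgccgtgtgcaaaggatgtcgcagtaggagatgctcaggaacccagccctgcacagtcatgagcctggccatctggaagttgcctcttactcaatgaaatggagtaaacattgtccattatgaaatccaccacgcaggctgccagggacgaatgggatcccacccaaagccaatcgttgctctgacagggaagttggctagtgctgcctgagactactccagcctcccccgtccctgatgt
Each Nr5a2 window held the half-site once, with its first base at position −29 from the first of these starts in the gene's direction and at −188 from the other start in the opposite direction. The Hsd11b1 window held none, and the full windows of Nr3c2 and Cyp11a1 held none either. Of 32851 mouse promoter windows of 300 bases, 19.0% held at least 1 such half-site, so a match is frequent, and no binding was measured. The letters AAGGTCA (reverse complement TGACCTT), a site for Nr5a2, were in none of these member windows and in 4.72% of all windows. Hsd11b2 and Star had no entry.

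Hsd11b1, which regenerates corticosterone, rose on DSS in both genotypes. Its probe A_51_P127297 read −0.29, 0.18, −0.15 and −0.12 in Flox water and −0.14, 0.44, −0.49 and −0.38 in GR iKO water. On DSS it read 2.06, 2.11 and 1.84 in Flox and 1.02, 1.24 and 1.67 in GR iKO. Every DSS array exceeded every water array, and the 3 Flox DSS arrays exceeded the 3 GR iKO DSS arrays. Hsd11b1 was 4.28-fold higher on DSS in Flox, a log2 change of 2.10 (SE 0.30, adjusted p = 0.000149), and 2.74-fold higher in GR iKO, a change of 1.45 (SE 0.30, adjusted p = 0.00239). Within slides the increase was 1.93 to 2.35 in Flox and 1.16 to 2.05 in GR iKO. The level on DSS was 0.69 lower in GR iKO than in Flox, but this was not called (SE 0.38, adjusted p = 0.371, exact permutation p = 0.1, the smallest possible), and the test of the difference between responses was not called either (−0.64, 95% confidence interval −1.55 to 0.27, adjusted p = 0.51). From highest to lowest the groups ran Flox DSS, GR iKO DSS, Flox water and GR iKO water, and the 2 water groups did not differ beyond their spread.

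Hsd11b2, which inactivates corticosterone, moved the other way. A_51_P410205 read 0.43, 0.39, 0.86 and 0.74 in Flox water and 0.25, 0.27, 0.54 and 0.92 in GR iKO water. On DSS it read −2.21, −1.86 and −0.78 in Flox and −2.59, −0.52 and −0.78 in GR iKO. All 6 DSS arrays were below all 8 water arrays, with GR iKO DSS replicate 1 the lowest, while the genotypes overlapped under both treatments. Hsd11b2 fell to 21.5% of the water level in Flox (log2 change −2.22, SE 0.42, adjusted p = 0.00112) and to 28.9% in GR iKO (−1.79, SE 0.42, adjusted p = 0.00569). Without GR iKO DSS replicate 1 the change in GR iKO was −1.14 (adjusted p = 0.0359). The genotypes differed by −0.11 on water (95% confidence interval −0.66 to 0.45) and by 0.32 on DSS (−0.86 to 1.50), and the responses by 0.43 (−0.87 to 1.74), none of them called.

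In Flox mice DSS therefore called 2 of the 7 measured genes, Hsd11b1 higher and Hsd11b2 lower, and in GR iKO mice 3 of 7, with Nr5a2 lower in addition. Across all probes 47.2% were called on DSS in Flox (21.8% higher, 25.4% lower) and 38.9% in GR iKO (19.1% higher, 19.8% lower), so 2 of 7 was a smaller share than over the array in Flox, and 3 of 7 was near it in GR iKO. The groups did not overlap for the same 2 and 3 genes, against 57.4% and 46.3% of all probes. The median change of the 7 genes was −0.48 in Flox and −0.05 in GR iKO, beside −0.09 and −0.02 over all probes. Both DSS comparisons were scaled to the 75th percentile. When arrays were scaled to the Agilent spike-in transcripts instead, the median change of all probes was −2.42 in Flox and −0.96 in GR iKO. On that scale Hsd11b1 changed by −0.24 in Flox and by 0.52 in GR iKO, neither of them called (adjusted p = 0.679 and 0.425), so that its rise holds relative to the other transcripts and not per amount of spike-in. Relative to the median of all probes its change was 2.18 and 1.48. This is the same under both scalings by construction, since each subtracts 1 value per array, and so it is no check of the result. Hsd11b2 was called lower under both scalings, with changes of −4.55 and −2.73 with spike-ins. The Flox changes of Nr3c1 and Star turned to −2.26 and −2.05 with spike-ins, close to that median.

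**Figure D2:**
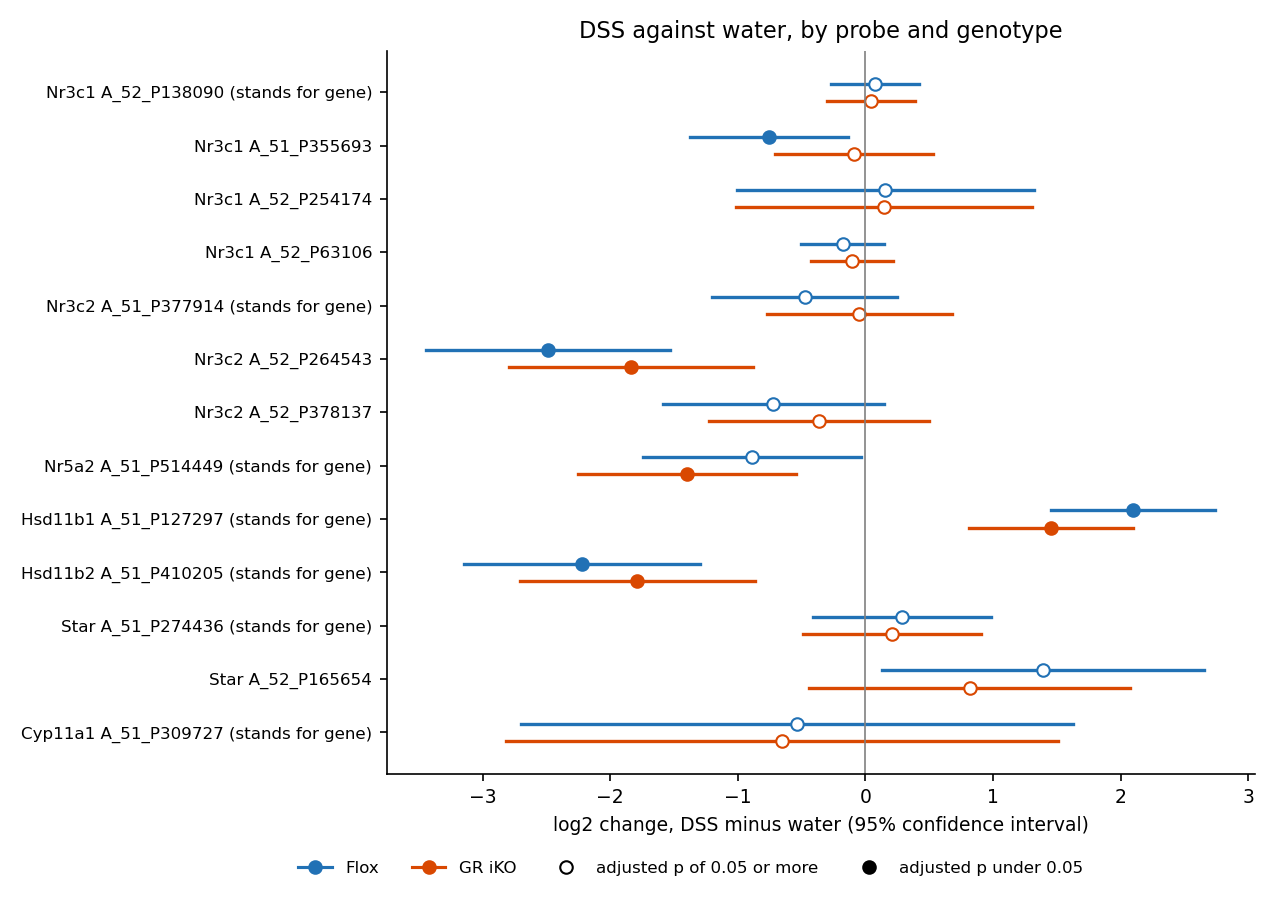
Change on DSS against water (horizontal axis, log2) of the 13 tested probes in Flox and in GR iKO, with 95% confidence intervals from limma and filled points for an adjusted p under 0.05. Hsd11b1 lies to the right of 0 and Hsd11b2 to the left in both genotypes, while probes of Nr3c1 and of Nr3c2 disagree with each other.

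The 2 enzymes were also set against each other within each array, a difference that a scaling by 1 value per array does not shift. With the mean of Flox water arrays at 0, Hsd11b1 minus Hsd11b2 ran from −0.31 to 0.49 in Flox water and from −0.61 to 0.87 in GR iKO water. It was 4.97, 4.66 and 3.32 in Flox DSS and 4.30, 2.46 and 3.14 in GR iKO DSS. No DSS array came near the water range, and the DSS ranges of the genotypes overlapped. The mean was 4.32 ± 0.88 in Flox DSS (SD, n = 3) and 3.30 ± 0.93 in GR iKO DSS (n = 3), which puts the ratio of the 2 signals 19.9-fold higher on DSS in Flox and 9.47-fold higher in GR iKO. Exact permutation tests gave p = 0.0286 in each genotype, the smallest that 3 against 4 arrays allow. Since each gene alone already separated DSS from water arrays, in opposite directions, this p was fixed in advance and adds no support to the single-gene results. The genotypes differed by −1.02 on DSS (exact permutation p = 0.2) and by 0.06 on water (exact permutation p = 0.914). A ratio of 2 probe signals shows unequal change and does not say which transcript was more abundant.

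**Figure D3:**
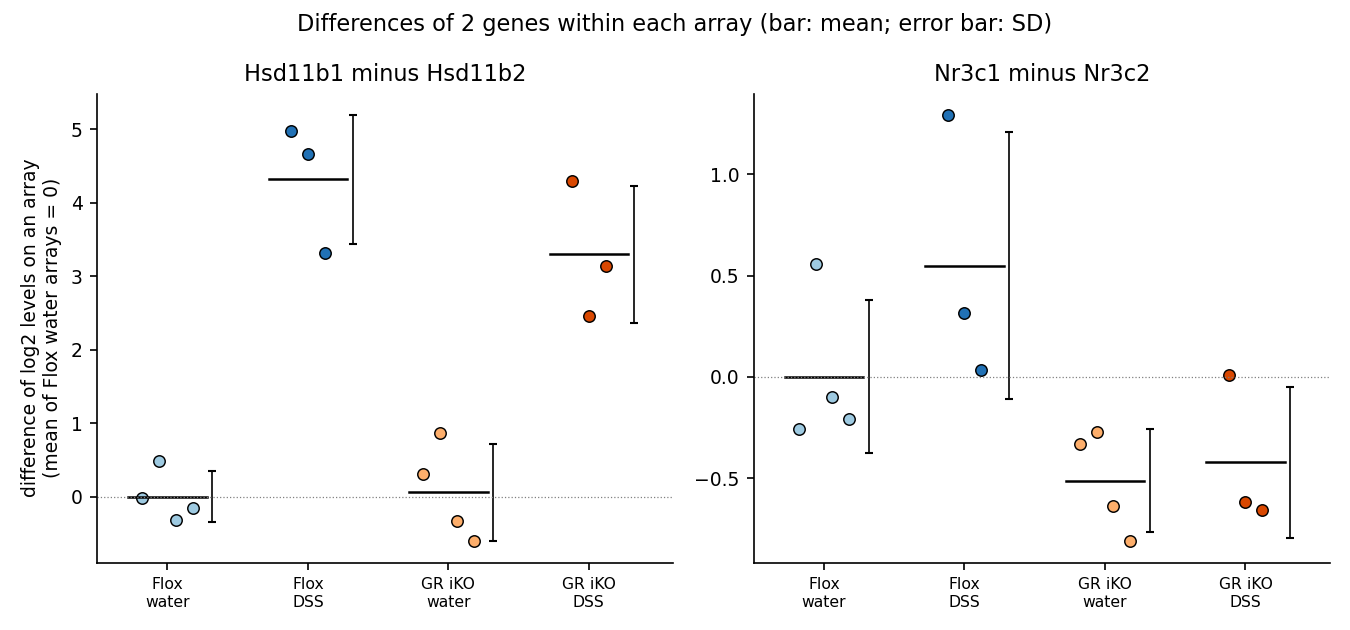
Difference of log2 levels of 2 genes on each array (vertical axis, mean of Flox water arrays at 0), with bars for group means and error bars for SD. Hsd11b1 minus Hsd11b2 lies between 2.46 and 4.97 on DSS arrays and at 0.87 or below on water arrays, and Nr3c1 minus Nr3c2 is lower in GR iKO than in Flox on water.

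Cyp11a1, the side chain cleavage enzyme, was at or near the detection limit. It was well above background with probe A_51_P309727 on 2 of 4 Flox water arrays, 1 of 4 GR iKO water arrays and none of the 6 DSS arrays. Its levels were −6.37, −6.73, −6.36 and −5.24 in Flox water and −7.90, −6.12, −6.75 and −4.26 in GR iKO water, against −6.47, −6.67 and −6.98 in Flox DSS. The groups overlapped, and no lower bound on a fold could be given because signals lay at the background. The change was −0.53 in Flox (95% confidence interval −2.70 to 1.63) and −0.65 in GR iKO (−2.81 to 1.51). A second Cyp11a1 probe, A_51_P309733, was well above background on 1 array, Flox water replicate 4, and was not tested.

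Star, which carries cholesterol to the inner mitochondrial membrane, showed no called change. A_51_P274436 was well above background on all arrays and averaged −3.87 ± 0.21 in Flox water, −3.59 ± 0.91 in Flox DSS, −4.09 ± 0.19 in GR iKO water and −3.88 ± 0.44 in GR iKO DSS. The change on DSS was 0.29 in Flox (95% confidence interval −0.41 to 0.99) and 0.21 in GR iKO (−0.49 to 0.91). Flox DSS replicate 4, at −4.57, lay below the other 2 of its group, at −3.42 and −2.77, and without it the Flox change was 0.78 (adjusted p = 0.0437). The second probe, A_52_P165654, read −4.91, −6.40, −5.28 and −4.83 in Flox water and −3.91, −3.39 and −4.59 in Flox DSS, with no overlap between the groups. Its change of 1.39 missed the threshold (SE 0.58, adjusted p = 0.0657), as did that of 0.82 in GR iKO (adjusted p = 0.292).

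Between genotypes on DSS no member was called (0 of 7 genes, 0 of 13 probes), where 0.0203% of all probes were. At an unadjusted p under 0.05, Nr3c1 was the single gene of the 7. Its arrays and those of Hsd11b1 did not overlap between genotypes on DSS, against 22.8% of all probes, and on water Nr3c1 alone did not overlap, against 2.26%. The genotype by DSS interaction called none of the members by limma, none at an unadjusted p under 0.05, and 0% of all probes, of which 4389 had an unadjusted p under 0.05. The estimate of the spread bore on the result for Nr3c1, since with 1 spread shared by all arrays its difference on DSS was called (adjusted p = 0.00718) while that on water was not. Without Flox DSS replicate 4 the difference on DSS was called as well (−0.93, adjusted p = 0.0456). With spike-in scaling the sign on DSS turned, to 0.39, as the median of all probes moved to 1.25 between the genotypes. Relative to that median the difference was −0.86, which is the same under both scalings by construction.

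**Figure D4:**
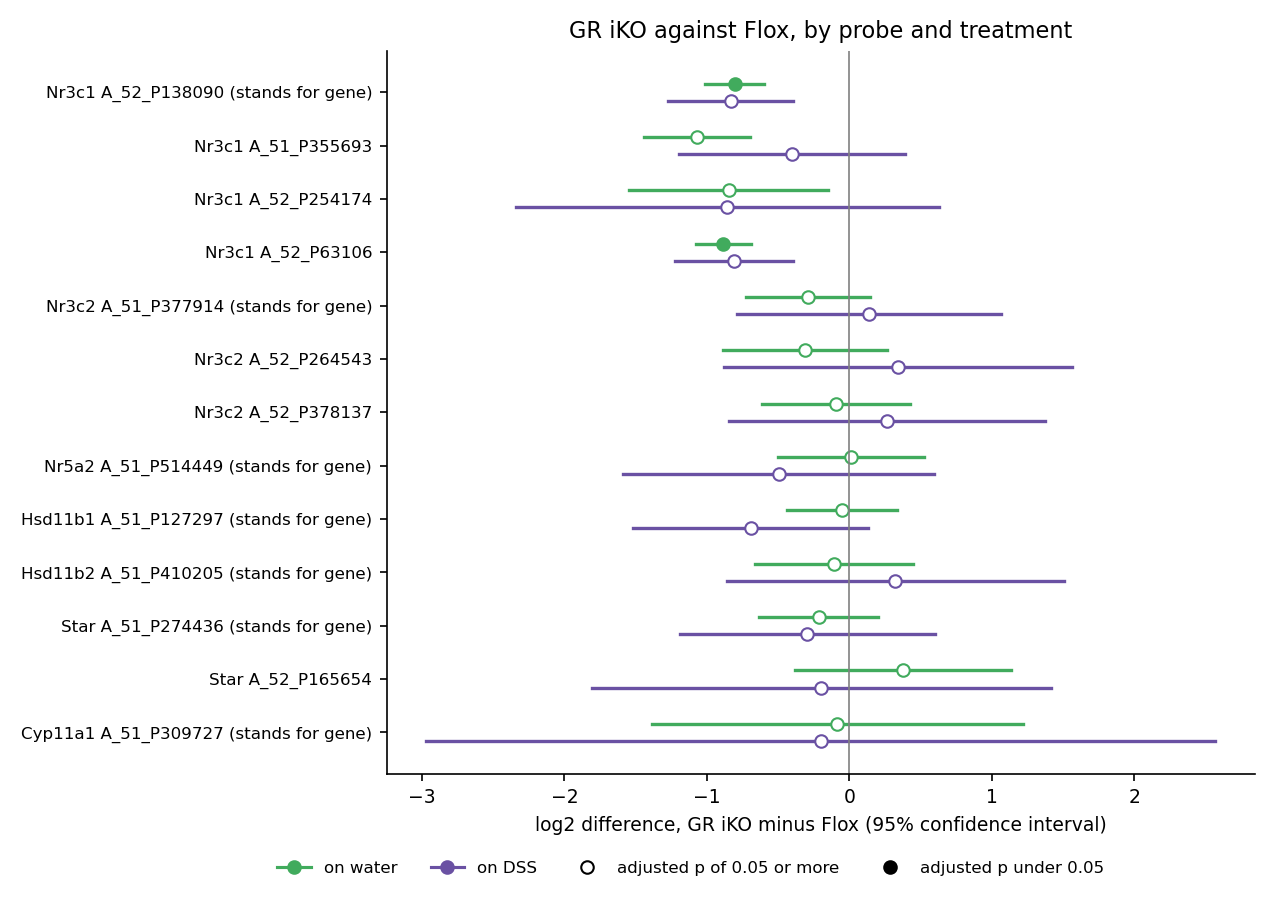
Difference between GR iKO and Flox (horizontal axis, log2) of the 13 tested probes on water and on DSS, with 95% confidence intervals from limma and filled points for an adjusted p under 0.05. The 4 Nr3c1 probes lie left of 0 under both treatments with 2 of them called on water, and intervals on DSS are wider than on water.

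Cell type markers moved on DSS beside these genes, and their part in the results was not tested. Their counts stand beside 21.8% of all probes called higher and 25.4% lower on DSS in Flox. In GR iKO these shares were 19.1% and 19.8%, so a count near them is no result about a cell type. The epithelial list had 5 of 12 genes called lower and 2 higher in Flox, with a summed level of 1071 to 1285 on Flox water arrays (where the 75th percentile of the array is 1) and 873 to 1273 on Flox DSS arrays. In GR iKO 1 was lower and 2 were higher, and the sum was 1146 to 1295 on water and 1190 to 1675 on DSS. Colonocyte markers had 2 of 7 lower in Flox and 3 of 7 in GR iKO, and none was higher. Fibroblast and matrix markers were higher in 8 of 8 genes in both genotypes, their sum rising from 109 to 129 on Flox water to 267 to 400 on Flox DSS and from 100 to 142 to 244 to 300 in GR iKO. Smooth muscle markers were higher in 7 of 8 genes in Flox and 1 of 8 in GR iKO, and enteric nerve and glia markers in 8 of 8 tested genes in both. Of these 8 nerve and glia genes, 1 was well above background on no Flox water array and 1 on no GR iKO water array. Those 8 of 8 counts therefore include a signal at the background on water. Macrophage markers were higher in 5 of 9 genes in Flox and 7 of 9 in GR iKO, neutrophil markers in 6 and 7 of 7, and B and plasma cell markers were lower in 6 and 2 of 7. Of the neutrophil markers, 3 were well above background on no Flox water array, 2 on no GR iKO water array and 1 on no Flox DSS array. The neutrophil counts thus rest in part on signals at the background on water. The call of a marker that passed the filter only through DSS arrays, where it was high, gives no support of its own. Endothelial markers were higher in 3 and 1 of 7 genes, 1 of 6 T cell markers was lower in Flox and none was called in GR iKO, and 2 of 5 adipocyte markers were higher in Flox and 2 lower in GR iKO. On DSS the smooth muscle sum was 1357 to 2435 in Flox and 436 to 1037 in GR iKO, and the nerve and glia sum 17.2 to 27.2 and 10.2 to 13.0, with the Flox arrays above, as for Hsd11b1. The neutrophil sum did not overlap between genotypes either and ran the other way, at 24.1 to 66.9 in Flox and 79.1 to 285 in GR iKO. The sums of the other lists overlapped on DSS. The mean log2 level of a list, centred on water arrays, separated the genotypes on DSS for further lists. For fibroblast and matrix markers the lowest Flox array (1.21) lay above the highest GR iKO array (1.17), as for Hsd11b1. For T cell markers the highest Flox array (−0.33) lay below the lowest GR iKO array (−0.22). Separation of 3 against 3 arrays is frequent, since 22.8% of all probes did not overlap between genotypes on DSS. A list that separates by either measure is thus no result about a cell type on its own. No marker gene of any list was called between genotypes on water or on DSS.

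The genes with the profile nearest to each called member over the 14 arrays, by root mean square difference of centred log2 levels among 15463 other genes, are given as a description. For Hsd11b1 they were Jam2, a junction adhesion molecule (0.20), Scg5, a secretory granule chaperone (0.23), and Ssbp2 (0.23). For Hsd11b2 they were Sema4g, Eppk1 and Appl2 (0.24 to 0.30), for Nr5a2 Pheta1, Lrig3 and Acss1 (0.24 to 0.25), and for Nr3c1 Col8a2, Rogdi and Wdr34 (0.27 to 0.28). None of the 3 genes nearest to Nr3c1 was called in any of the 4 comparisons of a pair of groups.

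Genes that work with the members were read from 7 lists, whose counts stand beside the 47.2% of all probes called on DSS in Flox (21.8% higher, 25.4% lower) and 38.9% in GR iKO (19.1% higher, 19.8% lower), and whose medians stand beside −0.09 and −0.02 over all probes. The chaperones that hold corticosteroid receptors in a state able to bind hormone were for the most part not called, with 1 of 12 higher and 2 lower on DSS in Flox and 2 higher and 2 lower in GR iKO (medians 0.06 and 0.05). Fkbp5, a GR target that dampens hormone binding, rose by 1.54 in Flox (adjusted p = 0.00301) and by 1.10 in GR iKO (adjusted p = 0.0243). Fkbp4, its counterpart that favours receptor transport, fell by 1.07 and by 1.24 (adjusted p = 0.00838 and 0.00489), and Bag1 fell in both. Of 13 coregulators 3 fell in Flox and 2 in GR iKO. The coactivator Ppargc1a changed by −2.53 and −3.23 (adjusted p = 0.00115 and 0.000352) and the corepressor Nrip1 by −1.12 and −0.95.

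A list of mineralocorticoid receptor targets and regulators of the sodium channel went in both directions, with 3 of 12 higher and 5 lower in Flox and 3 higher and 2 lower in GR iKO (medians −0.40 and −0.32). Whether the receptor controls each of these genes here was not tested. Nedd4l, the ligase that removes the epithelial sodium channel, rose by 2.14 in Flox and 1.57 in GR iKO (adjusted p = 2.1e-06 and 1.43e-05). The potassium channel gene Kcnma1 rose by 2.02 and 1.27 and Per1 by 1.51 and 1.06. Fxyd4, a sodium pump regulator, changed by −8.00 (SE 1.88, adjusted p = 0.00417) and −5.62 (adjusted p = 0.0324), and it was well above background on 2 of 3 DSS arrays in each genotype. The sodium channel subunits changed by −1.68 (Scnn1a), −2.34 (Scnn1b) and −3.72 (Scnn1g) in Flox, all called, whereas in GR iKO Scnn1a was called (−1.35, adjusted p = 0.00358) and Scnn1b and Scnn1g were not (−1.51 and −0.80). On Flox DSS arrays Scnn1b was well above background on 2 of 3 and Scnn1g on 1 of 3, and in GR iKO Scnn1g was on 2 of 3, so the sizes of these changes, like that of Fxyd4, rest in part on signals at the background. No interaction was called.

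Genes that supply cholesterol to steroid synthesis were lower on DSS in 7 of 12 cases and higher in 1 in Flox, and lower in 3 and higher in none in GR iKO (medians −0.41 and −0.13). Stard4, a cholesterol carrier, fell by 1.29 and 1.16 (adjusted p = 0.000515 and 0.00154), and Npc2, which moves cholesterol out of lysosomes, by 1.01 and 0.78. Among the other synthetic enzymes and electron donors, 2 of 11 tested were higher and 5 lower in Flox and 1 higher and 7 lower in GR iKO (medians −0.78 and −0.89). The 3-beta-hydroxysteroid dehydrogenase probes fell most, with Hsd3b3 at −1.78 and −2.52, Hsd3b6 at −1.56 and −2.60 and Hsd3b2 at −1.40 and −1.92, and since these genes are close copies of each other their probes may share signal. Por, which passes electrons to microsomal P450 enzymes, rose by 0.86 and 0.62. Cyp17a1 rose by 1.09 in Flox (adjusted p = 0.0234) and read 0.84 in GR iKO (adjusted p = 0.0808).

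The list of corticosterone reduction, breakdown and transport had 12 genes tested, of which 4 rose and 7 fell in Flox and 3 rose and 6 fell in GR iKO (medians −0.70 and −0.44). H6pd, which supplies the cofactor that lets Hsd11b1 work as a reductase, rose by 1.42 in GR iKO (adjusted p = 0.00262) and by 1.33 in Flox (adjusted p = 0.00287). Slc37a4, which carries its substrate into the endoplasmic reticulum, fell by 0.73 in Flox and 0.71 in GR iKO (adjusted p = 0.0128 and 0.0188), and both genes are named here after their values were seen, since the naming by size takes H6pd in GR iKO alone and Slc37a4 in neither genotype. Akr1c18, a 20-alpha-hydroxysteroid dehydrogenase, rose by 2.77 and 2.36, and Cyp3a11 by 1.99 and 1.18. Akr1c14, a 3-alpha-hydroxysteroid dehydrogenase, fell by 2.07 and 2.33, the steroid exporter Abcb1a by 2.00 and 2.20, and Srd5a1, a 5-alpha-reductase, by 1.34 in Flox. Serpina6, the corticosteroid-binding globulin, was well above background on 2 of 3 Flox DSS arrays, 1 of 3 GR iKO DSS arrays and no water array. Its level on DSS in Flox was at least 2.12-fold higher, a bound set against the lowest signal well above background. It passed the filter only through DSS arrays, so its call, 1 of the 4 that rose in Flox, gives no support of its own. Of 8 tested regulators of steroid synthesis, 2 rose and 1 fell in Flox and 1 rose in GR iKO, with Crhr2 at 1.37 and Hnf4a at −1.17 in Flox and Crhr1 at 1.38 in GR iKO. None of the 7 lists had a gene called between genotypes on water or on DSS, or in the interaction.

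**Figure D5:**
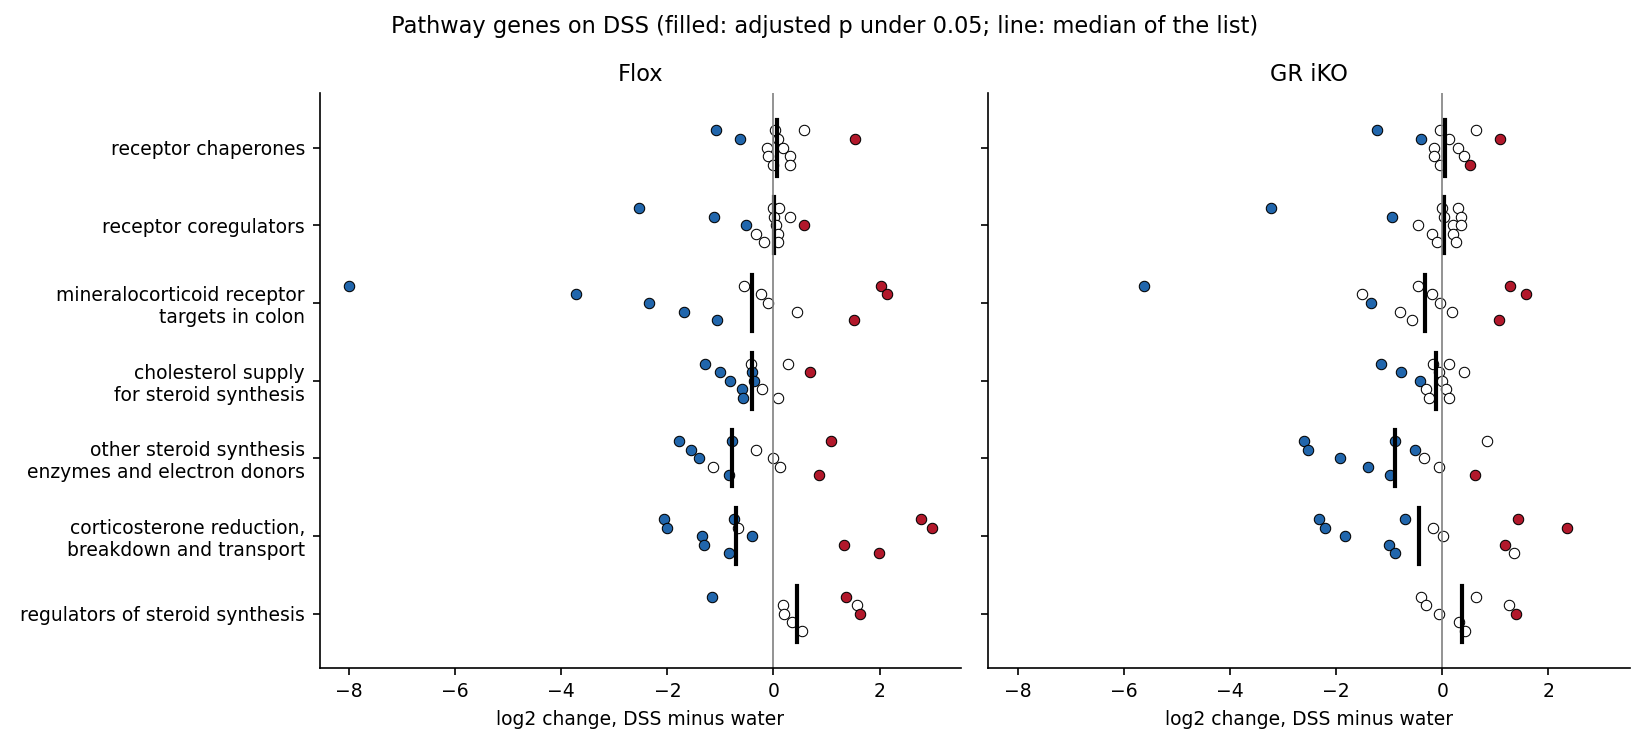
Change on DSS against water (horizontal axis, log2) of each tested gene of the 7 lists in Flox and in GR iKO, with filled points for an adjusted p under 0.05 and a vertical line at the median of each list. Medians run from −0.78 to 0.44 in Flox and from −0.89 to 0.37 in GR iKO, and Fxyd4 is the point farthest to the left.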

How the data were processed

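The authors scanned the arrays and used Agilent Feature Extraction (version 12.0.0.7 per the file headers). The deposited processed intensity is background-subtracted and detrended within the array, with low values raised to a positive surrogate, which shrinks changes of dim probes. Deposited flag columns of other kind mark spots well above background, saturated or outlying. The deposited value table holds log2 values with the same distribution in all columns, and how they were made is not given in the sources used here (Partek 6.6 is named in the submitters' processing notes).

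Control spots (1639 of 45018) and outlier flags were left out and spots of a probe averaged. Log2 intensity minus the array's 75th percentile was fitted with limma 3.58.1 in R 4.3.3, with group means over all 14 arrays and arrayWeights giving 1.69 to water and 0.497 to DSS arrays. Tests were two-sided with Benjamini-Hochberg adjustment over 29523 probes well above background on at least 3 arrays. Single values were tested by exact permutation of the difference of means (SciPy 1.17.1). The fit was tested on simulated data. Groups came from the labels. Symbols came from RefSeq accessions (28223 of 29245 matched), and the probe with the highest mean level stood for a gene. Each of 4 slides holds at most 1 array of a group, so within-slide values compare single arrays. Members and lists were chosen with earlier results of these data known. From each list and comparison the called genes with the largest change are named, up to 3 higher and 3 lower, and 1 such result is not reported here. The DSS comparisons and the genotype comparisons share arrays. Alternatives changed the spread, arrays, scaling, background correction (normexp on median signals, offset 50), filter, probe and blocks, and left out each array.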

Additional observations from a re-analysis of the deposited data

Results flagged for a closer look

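The dimmer Star probe, A_52_P165654, had 1 array that stood apart from its group. GR iKO water replicate 1 read −4.20, and the other 3 arrays of the group lay between −5.33 and −5.15. The gap was 0.841 of the range of the group, against a critical value of 0.829 for 4 arrays. It was 1 of 32 groups of 4 arrays examined for the members, and chance alone gives about 1 in 20. The brighter Star probe did not stand apart on that array, at −4.01.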

How the results depend on the processing

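Of 863 member values recomputed under alternatives, 9 lost a call, 12 gained one, 3 reversed and 64 changed sign with no call in either setting. Scaling to spike-in transcripts reversed the Flox DSS changes of Nr3c1 (−2.26, adjusted p = 9.18e-05), Hsd11b1 (−0.24) and Star (−2.05) and called 5 member genes there, none between genotypes on water and 1 in the interaction (Nr3c2, 1.83, adjusted p = 0.0473). With it 25299 probes were called on DSS in Flox, 3 between genotypes on water, 0 on DSS and 8530 in the interaction. With 1 spread shared by all arrays the last 3 comparisons called 1, 3903 and 33 probes and 0, 1 and 0 member genes. The genotype comparison on water called 3 probes with only the arrays compared and 4 after normexp. The genotype comparison on DSS called 0 with only the arrays compared or with slide as a block, 19 after quantile normalization, 20 in the deposited value table and 10 with no filter. The interaction called 6 probes after normexp, 3 after quantile normalization, 3 in the value table and 1 with a filter of 7 arrays. Normexp called 4 member genes on DSS in Flox (Nr5a2 and Star in addition), and the genotype comparison on water called 0 with only the arrays compared, with slide as a block or with the mean over probes. Normexp also moved the share of higher calls on DSS to 66.2% in Flox and 60.1% in GR iKO, from 46.2% and 49.2%. It moved the Flox DSS change of Nr3c1 minus Nr3c2 to −0.12, and the mean over probes moved that in GR iKO to 0.75 and the genotype difference on water to −0.67 (exact permutation p = 0.0857).

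Without 1 array, called probes ran from 9190 to 14801 on DSS in Flox, 8763 to 11921 in GR iKO, 5 to 9 between genotypes on water, 0 to 826 on DSS (826 without Flox DSS replicate 4, 732 without GR iKO DSS replicate 3) and 0 to 49 in the interaction (49 without GR iKO DSS replicate 3). Member genes called ran from 2 to 4, 2 to 3, 0 to 1, 0 to 1 and 0 to 0. Hsd11b1 minus Hsd11b2 ran from 3.99 to 4.82 on DSS in Flox and 2.74 to 3.66 in GR iKO, −0.21 to 0.28 between genotypes on water and −1.52 to −0.59 on DSS, and with 1 array fewer the exact test on DSS against water cannot reach the threshold. Nr3c1 minus Nr3c2 ran from 0.18 to 0.81, −0.12 to 0.21, −0.60 to −0.33 (the p lost in 6 of 8 cases) and −1.23 to −0.60. Same-numbered arrays did not pair (r from −0.08 to 0.31), and with a replicate block 0 probes were called between genotypes on DSS and the Nr3c1 call on water was lost (adjusted p = 0.169). With 3 or 4 arrays a group, intervals were wide for Cyp11a1 and for all genotype values on DSS, and signals near background bound only 1 side.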
